A study of Homo sapiens with 12 samples.

Results

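The 10 genes described here encode enzymes that make serine, asparagine, cysteine precursors and one-carbon units: PHGDH, PSAT1, PSPH, SHMT2, MTHFD2, ALDH1L2, ASNS, PCK2, CBS and CTH. They were chosen by gene symbol from the deposited expression table, each symbol matched 1 row, and they are 10 of its 34626 genes. All 10 passed the filter on low values, which asked for 1 FPKM or more in 3 or more libraries, as did 12350 genes in all. FPKM is by definition a level per transcript length and per library depth, and levels of different genes are compared on it here, although the exact denominator of the deposited values is not stated.

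Serine is made from a glycolytic intermediate in 3 steps, oxidation by PHGDH, transamination by PSAT1 and dephosphorylation by PSPH. SHMT2 then splits serine in mitochondria into glycine and a one-carbon unit carried on folate, which MTHFD2 and ALDH1L2 oxidize further. ASNS makes asparagine from aspartate, and the mitochondrial enzyme PCK2 makes phosphoenolpyruvate. CBS and CTH pass the sulfur of homocysteine through cystathionine to cysteine, using serine as the acceptor. Most of these genes are textbook targets of the transcription factor ATF4, which translates amino acid shortage and other stress signals into gene expression (the integrated stress response).

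The study was an RNA sequencing experiment on 2 human lines of acute myeloid leukaemia with monocytic features, MV4-11 and THP-1, asking which transcripts move after a short hairpin RNA against CYTH4 (cytohesin 4, an activator of ARF GTPases). The 4 groups of 3 libraries were MV4-11 shCYTH4, MV4-11 shControl, THP-1 shCYTH4 and THP-1 shControl, where shCYTH4 cells are labelled as a CYTH4 knockdown and shControl cells carry a control hairpin. Each group is 1 established line with 1 hairpin label. The hairpin sequences, the vector, the time after delivery, and whether a group was a pool or a clone are not stated in the labels. In bulk RNA, a change in every cell and a change in the share of cells with the transcript cannot be told apart.

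Depth was even, at 71730093 to 77782719 estimated counts per library. Marker levels were set against the lines' label. LYZ, the lysozyme of monocytic cells, had the highest group mean of the 12 monocytic markers, 1707 FPKM. The highest group mean of any T cell, B cell, erythroid, megakaryocyte, epithelial or fibroblast marker was 2.94 FPKM, that of KRT18. Monocytic markers other than LYZ are given only as a sum, which abundant genes can dominate. The summed level of the 12 monocytic markers itself moved with the groups, at 2212 to 2239.9 FPKM in MV4-11 shCYTH4 and 2644 to 2857 FPKM in shControl, and at 3104 to 3385 FPKM in THP-1 shCYTH4 and 2529.98 to 2872 FPKM in shControl. THP-1 shCYTH4 replicate 3 lay with its group there, at 3104 FPKM. The epithelial and fibroblast markers, 8 of 10 found, summed to 0.277 to 0.465 FPKM in THP-1 shCYTH4 and 1.49 to 2.24 FPKM in shControl. The part of these markers in the enzyme levels was not tested. The targeted gene CYTH4 was at 15.5, 20.7 and 22.3 FPKM in the MV4-11 libraries labelled shCYTH4, against 20.9, 16.0 and 18.1 FPKM in MV4-11 shControl (log2 0.01, SE 0.19, adjusted p = 0.988). In THP-1 it was at 15.7, 15.0 and 15.7 FPKM with shCYTH4, against 25.7, 32.2 and 21.0 FPKM in shControl (log2 -0.89, SE 0.19, adjusted p = 0.0338). CYTH4 thus fell in THP-1, though the call was lost without shCYTH4 replicate 1 or 2 or shControl replicate 1 or 2 of THP-1 or without MV4-11 shCYTH4 replicate 2 (adjusted p from 0.0539 to 0.147). The MV4-11 groups differ in label without a measured fall of CYTH4.

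The libraries THP-1 shCYTH4 replicate 3 and MV4-11 shCYTH4 replicate 1 stood apart from their groups. The mean absolute difference over all tested genes, on the log2(FPKM + 1) scale, was 0.292 and 0.302 between THP-1 shCYTH4 replicate 3 and replicates 1 and 2, which differed by 0.121 from each other. It was 0.258 and 0.279 between MV4-11 shCYTH4 replicate 1 and replicates 2 and 3, which differed by 0.109 from each other. Control pairs differed by 0.152 to 0.247. For the enzymes, THP-1 shCYTH4 replicate 3 went against its group, although CYTH4 was as low in it as in replicates 1 and 2. MV4-11 shCYTH4 replicate 1 was above every control for all enzymes but SHMT2, like the rest of its group, and without it the median log2 change of the 10 in MV4-11 was 1.92, with 2 called higher, PSPH and CBS, among 110 genes called in all. Results that rest on THP-1 shCYTH4 replicate 3 are given with it and without it.

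Promoter sequences are shown for 4 of the enzymes, the 3 with the largest fitted change in MV4-11 (CTH, ASNS and PCK2) and PSAT1, the most abundant enzyme in MV4-11 shCYTH4. They are RefSeq windows on GRCh38.p14, each 300 bases on the gene's own strand, 5′ to 3′, with 250 bases before the annotated start and 50 after it. Capitals mark TGATGNAA, the core of the element bound by CEBP and ATF factors, and CCAAT boxes, both searched on both strands. The CTH window is chr1:70411018-70411317 on the plus strand, the ASNS window chr7:97872359-97872658 on the minus strand, the PCK2 window chr14:24094061-24094360 on the plus strand and the PSAT1 window chr9:78296875-78297174 on the plus strand.
CTH: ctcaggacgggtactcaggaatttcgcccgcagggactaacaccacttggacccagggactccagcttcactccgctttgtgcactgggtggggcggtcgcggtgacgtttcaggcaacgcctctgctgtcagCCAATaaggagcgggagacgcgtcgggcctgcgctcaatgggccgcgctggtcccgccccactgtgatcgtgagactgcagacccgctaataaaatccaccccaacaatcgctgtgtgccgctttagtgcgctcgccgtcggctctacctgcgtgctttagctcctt
ASNS: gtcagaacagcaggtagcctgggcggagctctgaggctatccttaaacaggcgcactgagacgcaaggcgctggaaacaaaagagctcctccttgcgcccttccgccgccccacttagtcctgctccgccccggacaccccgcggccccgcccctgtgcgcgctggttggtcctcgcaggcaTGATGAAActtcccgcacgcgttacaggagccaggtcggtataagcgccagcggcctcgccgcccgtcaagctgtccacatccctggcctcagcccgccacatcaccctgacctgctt
PCK2: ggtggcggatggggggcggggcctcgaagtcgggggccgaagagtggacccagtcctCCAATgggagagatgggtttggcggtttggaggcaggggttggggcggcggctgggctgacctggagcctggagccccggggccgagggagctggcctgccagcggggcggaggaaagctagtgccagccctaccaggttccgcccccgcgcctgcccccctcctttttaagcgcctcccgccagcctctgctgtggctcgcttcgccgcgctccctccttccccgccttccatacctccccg
PSAT1: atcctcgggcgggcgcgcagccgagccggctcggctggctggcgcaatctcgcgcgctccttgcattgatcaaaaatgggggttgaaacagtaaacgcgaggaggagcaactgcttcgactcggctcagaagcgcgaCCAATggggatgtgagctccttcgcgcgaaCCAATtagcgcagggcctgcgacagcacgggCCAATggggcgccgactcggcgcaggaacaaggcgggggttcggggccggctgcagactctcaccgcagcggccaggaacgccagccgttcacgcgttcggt

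The table of promoters held 10 windows for 7 of the enzymes and no entry for PSPH, SHMT2 and ALDH1L2. TGATGNAA was in 1 of the 10 windows, that of ASNS, as TGATGAAA beginning 68 bases before the start, and in 3.62% of all 35116 windows of the same length. CCAAT was in 7 of the 10 windows, from 6 of the 7 genes, and in 34.6% of all windows. PSAT1 carried 3 of these boxes, at 113, 83 and 52 bases before its start. These are matches of letters only.

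In MV4-11, 9 of the 10 enzymes were higher in every shCYTH4 library than in every shControl library, which was the case for 16% of all tested genes. Their fitted changes ran from 2.41-fold for PSPH to 5.71-fold for CTH. SHMT2, at 1.22-fold, was the exception, and its groups overlapped. The median log2 change of the 10 was 1.78, beside 0.00 for all tested genes. In the model over all 12 libraries, PSPH, PCK2 and CBS rose past an adjusted p of 0.05, so that 3 of 10 were called, against 0.526% of all tested genes called higher.

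**Figure D1:**
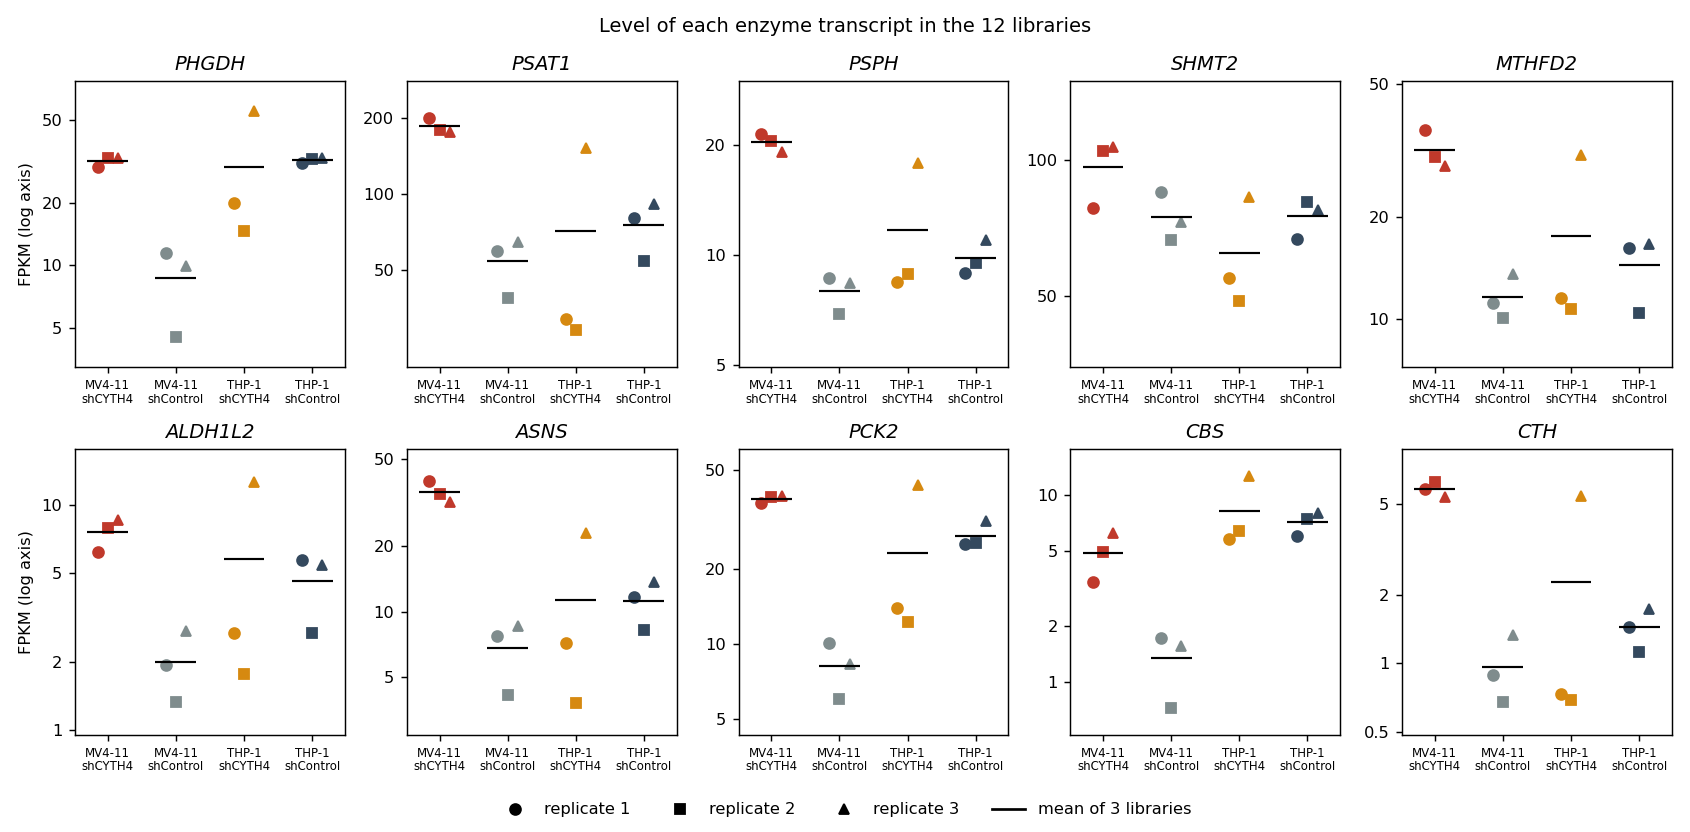
FPKM (log axis) of each of the 10 enzymes in the 12 libraries, by group; circles, squares and triangles are replicates 1, 2 and 3 and the bar is the mean of 3 libraries. In MV4-11 every panel but SHMT2 has the 3 shCYTH4 libraries above the 3 shControl libraries, and in THP-1 the triangle of shCYTH4 replicate 3 lies above the other 2 shCYTH4 libraries in every panel.

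The 3 enzymes of serine synthesis were all higher with shCYTH4. PHGDH, which commits the glycolytic intermediate to serine (ENSG00000092621, chromosome 1, 119648411 to 119744218), was at 29.7, 32.9 and 32.7 FPKM in MV4-11 shCYTH4 libraries, against 11.5, 4.52 and 9.93 FPKM in shControl. The shCYTH4 libraries lay close together and the groups did not overlap; shControl replicate 2 was the lowest. The fitted change was 3.46-fold (log2 1.79, SE 0.48, adjusted p = 0.126). PSAT1, the aminotransferase (ENSG00000135069, chromosome 9, 78297125 to 78330093), was at 199.5, 179 and 176 FPKM with shCYTH4, against 59.5, 38.5 and 64.5 FPKM in shControl. It was the most abundant of the 10 enzymes in MV4-11 shCYTH4, and its groups did not overlap (log2 1.69, SE 0.59, adjusted p = 0.25). PSPH, the phosphatase that releases serine (ENSG00000146733, chromosome 7, 56011051 to 56051467), was at 21.4, 20.5 and 19.2 FPKM with shCYTH4, against 8.64, 6.90 and 8.40 FPKM in shControl. It had the smallest spread of the 3 and rose by the test (log2 1.27, SE 0.23, adjusted p = 0.0127). Its pseudogene PSPHP1, which can share reads with it, was at 0 to 0.134 FPKM in the MV4-11 libraries.

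The mitochondrial folate enzymes split. SHMT2 (ENSG00000182199, chromosome 12, 57229573 to 57234935) was at 78.5, 104 and 107 FPKM in MV4-11 shCYTH4, against 84.9, 66.6 and 73.0 FPKM in shControl, and shCYTH4 replicate 1 lay below shControl replicate 1 (log2 0.29, SE 0.19, 95% interval -0.12 to 0.70, adjusted p = 0.524). MTHFD2, the dehydrogenase and cyclohydrolase that follows it (ENSG00000065911, chromosome 2, 74186172 to 74217565), was at 36.3, 30.3 and 28.5 FPKM with shCYTH4, against 11.2, 10.1 and 13.6 FPKM in shControl. The lowest MTHFD2 value with shCYTH4 was above the highest in shControl (log2 1.37, SE 0.34, adjusted p = 0.0804). ALDH1L2, which oxidizes formyltetrahydrofolate to carbon dioxide in mitochondria (ENSG00000136010, chromosome 12, 105019784 to 105084458), was at 6.21, 7.96 and 8.65 FPKM with shCYTH4, against 1.95, 1.32 and 2.74 FPKM in shControl. Its groups did not overlap either, with a wide error (log2 1.85, SE 0.69, adjusted p = 0.283).

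Asparagine synthetase and the mitochondrial phosphoenolpyruvate carboxykinase were among the largest changes. ASNS (ENSG00000070669, chromosome 7, 97851677 to 97872408) was at 39.8, 34.6 and 31.8 FPKM in MV4-11 shCYTH4, against 7.70, 4.14 and 8.56 FPKM in shControl. Every shCYTH4 library was far above the controls (4.91-fold, log2 2.30, SE 0.59, adjusted p = 0.112). ASNS overlaps, over nearly all of its length, a longer unnamed gene on the same strand, ENSG00000284707. That gene was at 6.68, 3.97 and 3.26 FPKM in MV4-11 shCYTH4 and 2.54, 3.12 and 2.49 FPKM in shControl, so that a part of the ASNS level is uncertain. PCK2 (ENSG00000100889, chromosome 14, 24094053 to 24104125) was at 36.9, 39.0 and 39.5 FPKM with shCYTH4, against 10.1, 6.04 and 8.33 FPKM in shControl. PCK2 rose by the test, and its 3 shCYTH4 libraries were nearly equal (4.44-fold, log2 2.15, SE 0.42, adjusted p = 0.0433).

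The transsulfuration enzymes had the lowest levels of the 10 and included the largest change. CBS, which condenses homocysteine with serine (ENSG00000160200, chromosome 21, 43053191 to 43076362), was at 3.43, 4.96 and 6.25 FPKM in MV4-11 shCYTH4, against 1.72, 0.733 and 1.57 FPKM in shControl. CBS rose by the test (3.43-fold, log2 1.78, SE 0.37, adjusted p = 0.041). CTH, which cleaves cystathionine to cysteine (ENSG00000116761, chromosome 1, 70411218 to 70439851), was at 5.86, 6.26 and 5.36 FPKM with shCYTH4, against 0.884, 0.677 and 1.33 FPKM in shControl. Its groups did not overlap, and the rarest transcript of the 10 in shControl was, with shCYTH4, at about the level of CBS (5.71-fold, log2 2.51, SE 0.69, adjusted p = 0.126).

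The edgeR quasi-likelihood model shares 1 estimate of the spread per gene among the 4 groups, so the wide THP-1 shCYTH4 group entered the MV4-11 errors. With only the MV4-11 libraries in the model, 9 of the 10 enzymes were called higher, against 0.753% of all tested genes, with adjusted p from 0.000335 for PCK2 to 0.0332 for CBS, and SHMT2 was not called (adjusted p = 0.407). Without THP-1 shCYTH4 replicate 3 it was again 9 of 10, against 1.78% of all tested genes. The calls of PCK2 and CBS were lost when any 1 of the 6 MV4-11 or 3 THP-1 shControl libraries was left out (adjusted p up to 0.164 for PCK2 and 0.118 for CBS), except that CBS stayed called without MV4-11 shCYTH4 replicate 1. The call of PSPH was lost without MV4-11 shControl replicate 2 (adjusted p = 0.0707), which was the lowest of the MV4-11 controls for all 10 enzymes.

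**Figure D2:**
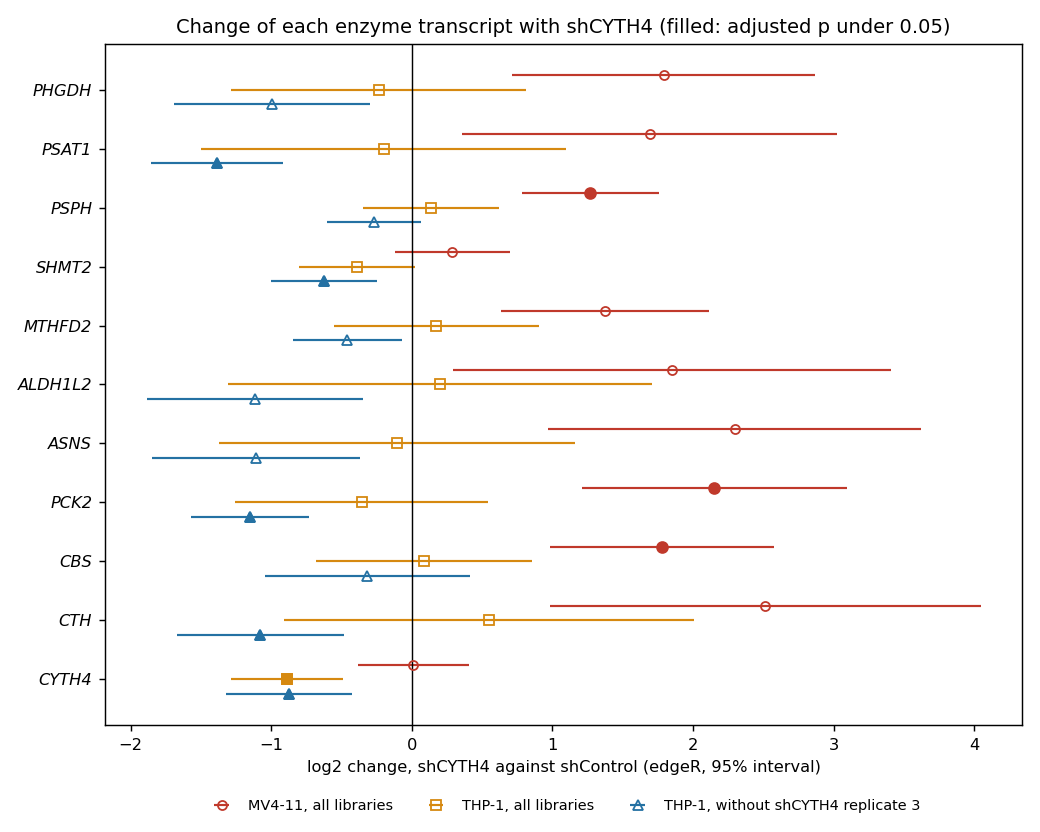
Fitted log2 change, shCYTH4 against shControl, of the 10 enzymes and CYTH4 (points, with 95% intervals from edgeR) in MV4-11 and in THP-1 with all libraries, and in THP-1 without shCYTH4 replicate 3; filled points have an adjusted p under 0.05. All 10 enzymes are above 0 in MV4-11, they lie on both sides of 0 in THP-1, and all 10 lie below 0 in THP-1 once that library is left out.

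In THP-1 the enzymes had no common direction over the 3 shCYTH4 libraries. Replicates 1 and 2 were below the mean of the THP-1 controls for all 10 enzymes, with a median ratio to that mean of 0.630 and 0.467. Replicate 3 was above it for all 10, with a median ratio of 1.92. With all libraries, 0 of the 10 were called in edgeR, and 0 had an unadjusted p under 0.05, against 1982 of the 12350 tested genes. DESeq2 and limma on log2(FPKM + 1) also had 0 enzymes under 0.05, against 2065 and 2443 genes. The fitted log2 changes ran from -0.39 for SHMT2 to 0.55 for CTH, with a median of -0.01, the same as for all tested genes, of which 0.607% were called higher and 1.04% lower (75 and 129 genes, against 329 and 148 with limma on log2(FPKM + 1)).

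Among the serine enzymes, PHGDH was at 19.9, 14.5 and 55.1 FPKM in THP-1 shCYTH4 libraries 1, 2 and 3, against 31.0, 32.6 and 33.0 FPKM in shControl. PSAT1 was at 32.0, 28.8 and 152 FPKM with shCYTH4, against 79.9, 54.1 and 91.1 FPKM in shControl. For both, 2 shCYTH4 libraries lay below every control and the third above every control. PSPH was at 8.43, 8.86 and 17.9 FPKM with shCYTH4, against 8.93, 9.49 and 11.0 FPKM in shControl, so that its replicates 1 and 2 lay just under the controls. PSPHP1 was at 6.11 to 7.96 FPKM in THP-1 shCYTH4 and 4.30 to 5.95 FPKM in shControl, which leaves the PSPH level less certain in this line.

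The mitochondrial folate enzymes had the same split between libraries. SHMT2 was at 55.0, 48.8 and 82.9 FPKM in THP-1 shCYTH4, against 66.8, 80.5 and 77.6 FPKM in shControl. MTHFD2 was at 11.5, 10.7 and 30.7 FPKM with shCYTH4, against 16.2, 10.4 and 16.7 FPKM in shControl. ALDH1L2 was at 2.71, 1.77 and 12.7 FPKM with shCYTH4, against 5.72, 2.69 and 5.40 FPKM in shControl. For MTHFD2 and ALDH1L2, shControl replicate 2 was also low and the groups overlapped, while SHMT2 had shCYTH4 replicates 1 and 2 below every control.

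ASNS was at 7.17, 3.80 and 22.9 FPKM in THP-1 shCYTH4, against 11.7, 8.22 and 13.6 FPKM in shControl. PCK2 was at 13.9, 12.2 and 43.6 FPKM with shCYTH4, against 25.3, 25.5 and 31.3 FPKM in shControl. Both had replicates 1 and 2 below, and replicate 3 above, every control. CBS was at 5.79, 6.37 and 12.5 FPKM with shCYTH4, against 6.02, 7.37 and 7.93 FPKM in shControl. CTH was at 0.736, 0.693 and 5.43 FPKM with shCYTH4, against 1.45, 1.12 and 1.74 FPKM in shControl. CTH in replicate 3 was as high as in the MV4-11 shCYTH4 libraries, and CBS in replicate 2 lay within the range of the controls.

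Without replicate 3, all 10 enzymes were below 0 in THP-1, with a median log2 change of -1.04, beside -0.01 for all tested genes. PSAT1 was called lower in that model (log2 -1.39, SE 0.22, adjusted p = 0.00256), as were PCK2 (-1.15, SE 0.20, 0.00359), CTH (-1.08, SE 0.28, 0.0315) and SHMT2 (-0.62, SE 0.18, 0.0476). These are 4 of 10, against 3.55% of all tested genes called lower. The other 6 did not pass, with log2 changes from -0.27 for PSPH to -1.12 for ALDH1L2 and adjusted p from 0.0784 to 0.65. Both remaining shCYTH4 libraries were below every control for 7 of the 10 enzymes, against 15.4% of all tested genes. With only the THP-1 libraries in the model and replicate 3 left out, 5 of 10 were called lower, against 7.54% of all tested genes. Leaving out replicate 1 or replicate 2 instead gave a median of 0.22 or 0.27 and 0 calls. Replicate 3 was singled out because its enzyme values went against its group. The p-values without it are not independent of that choice and do not establish a fall.

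The fitted responses of the lines were compared as a difference. The tested quantity was the log2 change in MV4-11 minus that in THP-1. With all libraries it was above 0 for all 10 enzymes, from 0.68 for SHMT2 to 2.51 for PCK2, with a median of 1.79 beside 0.02 for all tested genes. None of the 10 was called by edgeR, against 0.413% of all tested genes called higher, and 8 had an unadjusted p under 0.05, as had 1752 of the 12350 tested genes in either direction. DESeq2 called 3 higher (225 of all genes), limma on log2(FPKM + 1) called 1 higher (68 of all genes) and limma on log2(FPKM + 0.1) called 0 (41 of all genes). The closest was PCK2 (SE 0.58, adjusted p = 0.0862).

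Without THP-1 shCYTH4 replicate 3 the difference was called for all 10, against 3.9% of all tested genes. It was 3.61 for CTH (SE 0.38, adjusted p = 5.53e-05), 3.42 for ASNS (SE 0.46, 0.00173), 3.32 for PCK2 (SE 0.27, 6.07e-06) and 3.09 for PSAT1 (SE 0.30, 3.33e-05). ALDH1L2 followed at 2.98, PHGDH at 2.80, CBS at 2.11, MTHFD2 at 1.85 and PSPH at 1.55, with adjusted p from 0.000474 to 0.0181. SHMT2 had the smallest difference, 0.93 (SE 0.24, adjusted p = 0.0273). These calls rest on leaving out 1 library of 12 that was noticed in the data.

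The lines also differed without the CYTH4 hairpin, mainly in how much PHGDH, PCK2 and CBS they held. In shControl libraries, MV4-11 was lower than THP-1 in PHGDH (log2 -1.87, SE 0.48, adjusted p = 0.00892), PCK2 (-1.71, SE 0.42, 0.00578) and CBS (-2.38, SE 0.37, 0.000183). These 3 of 10 compare with 26.7% of all tested genes called lower, so the share is near that of genes at large. SHMT2 was level, at 74.8 ± 9.33 FPKM in MV4-11 shControl and 75.0 ± 7.22 FPKM in THP-1 shControl (SD, n = 3 each; log2 0.02, 95% interval -0.39 to 0.43). ALDH1L2 was at 2.01 ± 0.71 FPKM in MV4-11 shControl and 4.60 ± 1.67 FPKM in THP-1 shControl and was called lower in the model that left out THP-1 shCYTH4 replicate 3 (adjusted p = 0.00691), which made 4 of 10 against 28.2% of all tested genes. The other 5 had log2 differences from -0.27 to -0.68 and adjusted p from 0.334 to 0.556.

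The order of levels shifted with these changes. In MV4-11 shCYTH4, PSAT1 came first (185 ± 12.8 FPKM) and SHMT2 second (96.5 ± 15.7 FPKM), with ranges that did not meet. PCK2, ASNS, PHGDH and MTHFD2 followed at 31.7 to 38.5 FPKM, each overlapping its neighbour, then PSPH apart from both sides at 20.4 ± 1.11 FPKM, and ALDH1L2, CTH and CBS, which overlapped, at 4.88 to 7.60 FPKM. In MV4-11 shControl, SHMT2 came first and PSAT1 second (54.1 ± 13.8 FPKM), and the 5 from MTHFD2 down to ASNS overlapped at 6.80 to 11.6 FPKM. In THP-1 shControl, PSAT1 (75.0 ± 19.0 FPKM) and SHMT2 could not be ordered, and PHGDH (32.2 ± 1.04 FPKM) and PCK2 (27.3 ± 3.45 FPKM) stood above the remaining 6. Summed over the 10 enzymes, the FPKM was 458, 460.3 and 454 in MV4-11 shCYTH4 and 198, 139 and 192 in MV4-11 shControl. The sum was 157, 137 and 436 in THP-1 shCYTH4 and 253, 232 and 289 in THP-1 shControl. In this sum, shCYTH4 replicate 3 of THP-1 was near the MV4-11 shCYTH4 libraries. Abundant enzymes such as PSAT1 and SHMT2 can dominate the sum, and single enzymes need not match. PHGDH was higher in that replicate than in those libraries, and ASNS was lower.

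The mitochondrial enzymes were also set against their cytosolic counterparts as log2 FPKM ratios. MTHFD2 over MTHFD1, the cytosolic trifunctional enzyme, was at 1.01 ± 0.33 in MV4-11 shCYTH4 and -0.36 ± 0.21 in shControl (SD, n = 3 each), a difference of 1.37 (exact permutation test, two-sided, p = 0.1, the smallest that 3 against 3 libraries allow; adjusted over 6 tests, p = 0.6). In THP-1 the same ratio was at 0.64 ± 0.98 with shCYTH4 and 0.36 ± 0.30 in shControl, a difference of 0.28 (exact p = 0.8), which was -0.29 without shCYTH4 replicate 3. SHMT2 over SHMT1 differed by 0.15 in MV4-11 and by -0.24 in THP-1 (exact p = 0.5 and 0.4). MTHFD1L over MTHFD1 differed by 0.07 in MV4-11 and by 0.11 in THP-1 (exact p = 0.6 in both lines). MTHFD1 and SHMT1 themselves did not pass the edgeR test in either line, with log2 changes of 0.01 and 0.14 in MV4-11 and -0.24 and -0.18 in THP-1.

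In the model of all libraries, few enzymes one step away from the 10 were called in MV4-11. The same held for genes at large, of which 139 of 12350 tested were called, so the share in these lists is not unusual. Cytosolic and nuclear folate enzymes had a median log2 change of 0.02 with 0 of 10 tested genes called, the rest of mitochondrial folate metabolism and glycine cleavage -0.10 with 0 of 7, the methionine cycle and sulfur amino acid genes 0.03 with 0 of 14, and purine synthesis -0.02 with 0 of 12. The genes of phosphoenolpyruvate and pyruvate had 0.11 with 0 of 9, and the users of serine 0.35 with 0 of 11. Of the aspartate, glutamate and proline enzymes, 1 of 16 was called, GOT1, the cytosolic aspartate aminotransferase. It was at 11.8, 11.2 and 10.4 FPKM in MV4-11 shCYTH4, against 4.49, 5.03 and 5.80 FPKM in shControl (log2 1.05, SE 0.18, adjusted p = 0.00744). Without THP-1 shCYTH4 replicate 3, 4 of these 16 were called higher in MV4-11, against 1.78% of all tested genes: GOT1, the aminotransferases GPT2 (log2 1.36, SE 0.14) and BCAT1 (1.51, SE 0.20), and the argininosuccinate synthase ASS1 (1.13, SE 0.23), with adjusted p up to 0.019 for the last 3. Of the users of serine, 1 of 11 was then called higher, SERINC5 (log2 0.74, SE 0.18, adjusted p = 0.0398), and 0 genes of the other 5 lists were called.

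Of the related lists, the integrated stress response genes had the median farthest from 0 in MV4-11. This list mixes regulators with genes that the response induces, such as VLDLR. The median was 0.77, and 3 of 18 tested members were called, all higher, against 0.526% of all tested genes. They were the pseudokinase TRIB3 (log2 2.52, SE 0.46, adjusted p = 0.0297), the transcription factor ATF3 (1.18, SE 0.26, 0.0397) and the lipoprotein receptor VLDLR (1.01, SE 0.20, 0.0214). TRIB3 was at 27.1, 29.1 and 31.2 FPKM in MV4-11 shCYTH4, against 5.64, 3.32 and 5.38 FPKM in shControl. The call of TRIB3 was lost without any 1 of the 6 MV4-11 libraries (adjusted p from 0.059 to 0.123), that of VLDLR without any of these but shControl replicate 3 (0.0588 to 0.0987), and that of ATF3 without any 1 library other than MV4-11 shCYTH4 replicate 1 and THP-1 shCYTH4 replicates 2 and 3 (0.0507 to 0.177). Without THP-1 shCYTH4 replicate 3, 10 of 18 were called higher in MV4-11, against 1.78% of all tested genes, ATF4 among them (log2 0.58, SE 0.12, adjusted p = 0.0148). ATF4 was at 284, 252 and 235 FPKM in MV4-11 shCYTH4, against 176, 147 and 172 FPKM in shControl.

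In THP-1, ATF4 and CHAC1 of this list had the same split between libraries as most of the enzymes. ATF4 was at 161, 142 and 294 FPKM in THP-1 shCYTH4, against 205, 193 and 191 FPKM in shControl. CHAC1, which breaks down glutathione, was at 1.10, 0.478 and 17.3 FPKM with shCYTH4, against 8.79, 7.95 and 8.24 FPKM in shControl. Replicates 1 and 2 were below and replicate 3 above every control for both genes, as for 7 of the enzymes. The list median was -0.01 with all libraries and 0 of 18 called, and -0.36 without replicate 3. In that model 11 of 18 were below 0 and 7 above, 5 were called lower, against 3.55% of all tested genes, and 1, CEBPB, was called higher, against 397 of the 12350 tested genes. ATF4 and CHAC1 were chosen here after their values were seen. The part of these stress response genes in the enzyme changes was not tested.

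Among the other lists in THP-1, GCLM, the modifier subunit of the enzyme that starts glutathione synthesis, was the 1 called gene with all libraries. In this model 75 of the 12350 tested genes were called higher and 129 lower, so 1 call is near the share of genes at large. GCLM was at 6.59, 6.59 and 5.61 FPKM in THP-1 shCYTH4, against 3.75, 2.34 and 2.39 FPKM in shControl (log2 1.04, SE 0.19, adjusted p = 0.0159), and replicate 3 did not stand apart. The call was lost without shCYTH4 replicate 1 or 2 or shControl replicate 2 or 3 of THP-1 (adjusted p from 0.0686 to 0.0922). The medians of the 7 lists other than the stress response genes ran from -0.19 to 0.18 in THP-1. Without shCYTH4 replicate 3, 3 of 14 methionine cycle and sulfur amino acid genes were called higher. Of the 16 aspartate, glutamate and proline enzymes, 1 was called higher and 2 lower. In that model 397 of the 12350 tested genes were called higher and 438 lower.

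**Figure D3:**
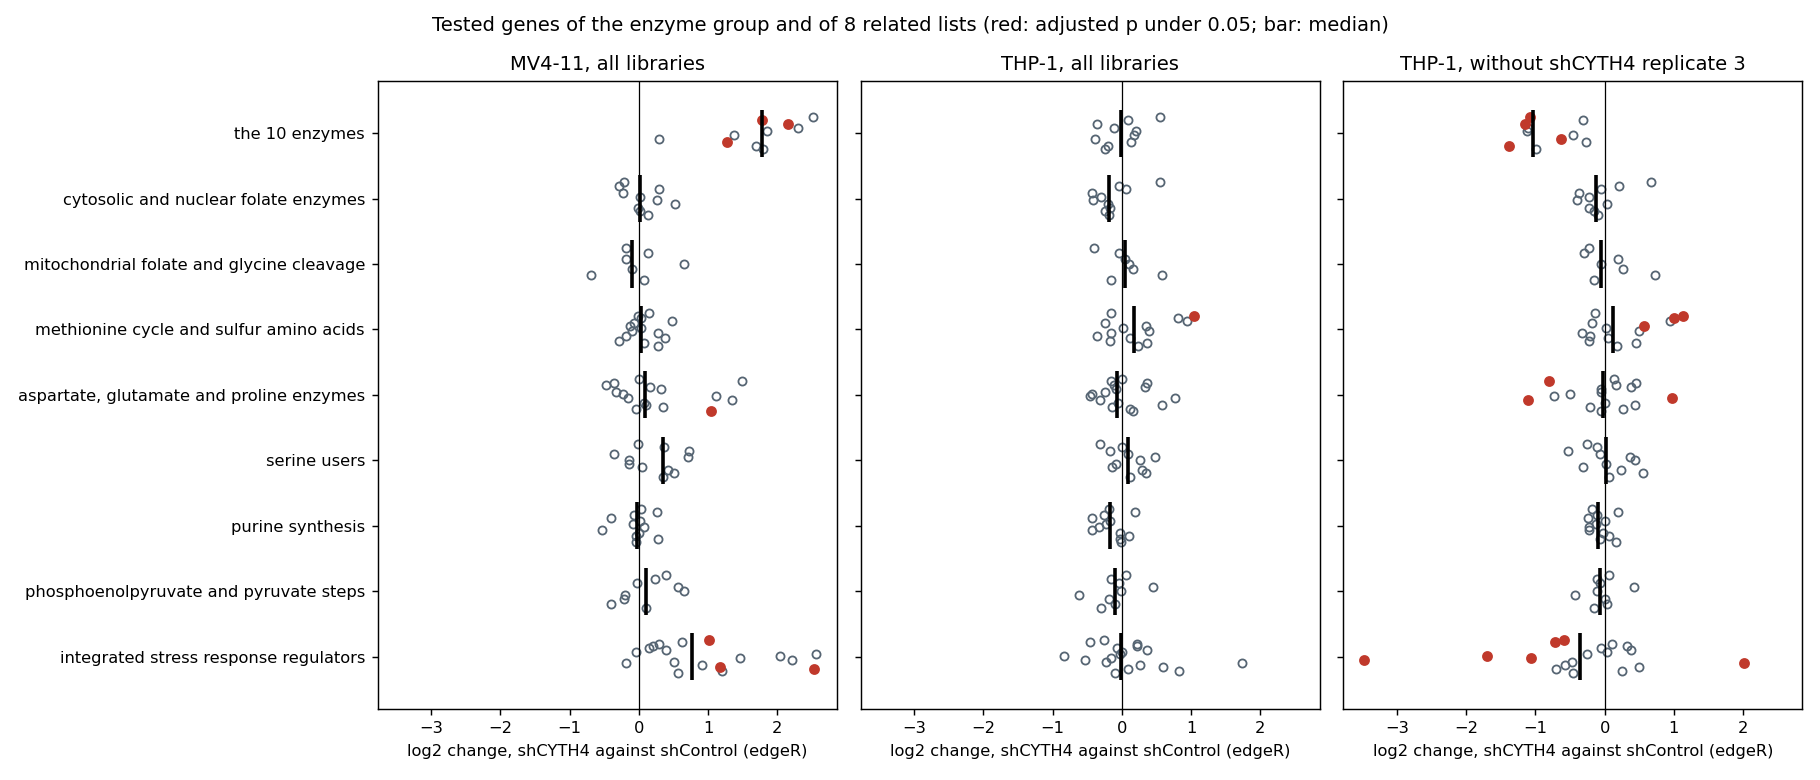
Fitted log2 change, shCYTH4 against shControl, of each tested gene (points) of the 10 enzymes and 8 related lists, in MV4-11, in THP-1 and in THP-1 without shCYTH4 replicate 3; red points have an adjusted p under 0.05 and the bar is the median. The enzymes are shifted right in MV4-11 and left in the last panel. The median of the stress response genes is 0.77 in MV4-11 and -0.36 in the last panel, where 7 of 18 are above 0. The bars of the other 7 lists lie between -0.19 and 0.35, the highest being that of the serine users in MV4-11.

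The profile of the enzymes over the 12 libraries was compared with that of every other gene. For each library, the log2 CPM of a gene minus the mean of its line's controls was taken, and the median over the 10 enzymes gave the profile. It was 1.69, 1.94 and 2.03 in MV4-11 shCYTH4 and 0.25, -0.47 and 0.25 in shControl, and -0.75, -1.17 and 0.82 in THP-1 shCYTH4 and -0.07, -0.15 and 0.21 in shControl. Of the 10, PHGDH lay closest to it (mean absolute difference 0.141) and SHMT2 farthest (0.629).

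Of 8883 other genes with a symbol and a mean FPKM of at least 2, those closest to the profile were NIBAN1 (0.174), APOL6 (0.192), SESN2 (0.215), GPT2 (0.255), BCAT1 (0.271) and CARS1 (0.273), where the median of all tested genes was 0.839. GPT2 is a mitochondrial alanine aminotransferase, BCAT1 a branched-chain aminotransferase, CARS1 the cytosolic tRNA synthetase for cysteine and SESN2 a stress-inducible sensor of leucine. NIBAN1 was called higher in MV4-11 (log2 2.02, SE 0.30, adjusted p = 0.00454), as was APOL6 (1.99, SE 0.39, 0.0327), and the other 4 had log2 changes from 1.24 to 1.49 without a call. With THP-1 shCYTH4 replicate 3 left out, SESN2, GPT2, BCAT1 and CARS1 fell in THP-1 (log2 -0.76 to -1.11, adjusted p from 0.0013 to 0.0475), and NIBAN1 and APOL6 did not pass (-0.37 and -0.57). These genes were picked for likeness, so their values describe the match.

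**Figure D4:**
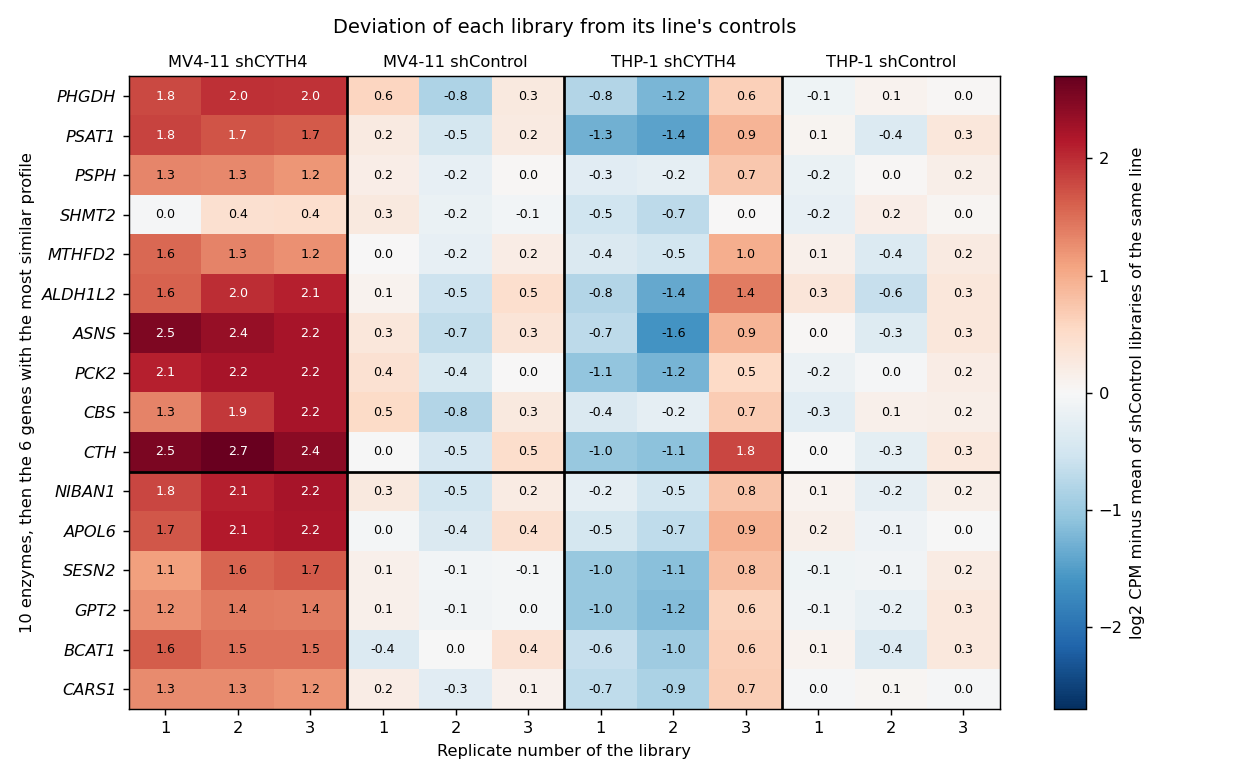
Log2 CPM of the 10 enzymes and of the 6 genes with the most similar profile, in each of the 12 libraries, minus the mean of the shControl libraries of the same line (colour and printed value; red above, blue below). MV4-11 shCYTH4 is red, except that SHMT2 is near 0 in replicate 1 and only at 0.4 in replicates 2 and 3. THP-1 shCYTH4 is blue in replicates 1 and 2 and red in replicate 3, where SHMT2 is near 0.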

How the data were processed

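RNA with poly(A) tails was sequenced in 12 libraries, 3 for each of 4 groups. Per the file headers, the deposited table holds an estimated count and an FPKM for each of 34626 genes in each library (24 value columns, of which 0 lacked a sample). The column names abbreviate the groups as SC and Sh, taken here to be shControl and shCYTH4. The estimated counts that the authors deposited are whole numbers and pile up at multiples of 4, so 1 count need not be 1 fragment. What the deposited FPKM values were divided by is not stated. The submitters' processing notes name fastp, StringTie and edgeR, with no version or role. No source used here gives the aligner, genome build or annotation, and gene positions are those of the file. Strand use in counting is not stated, so that enzymes overlapping other genes, such as ASNS, are less certain.

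Counts were fitted in R 4.3.3 by the quasi-likelihood method of edgeR 4.0.16 (TMM scaling, robust moderation) in 1 model of 4 group means over all 12 libraries. The 12350 genes with 1 FPKM or more in 3 or more libraries were tested, p-values were adjusted over them by the Benjamini-Hochberg method, and calls were made at adjusted p-values under 0.05. SE is the standard error of a log2 change. Both lines' responses to shCYTH4, their difference, and the lines' controls were compared. Isozyme ratios were tested by exact permutation. Nothing says that the libraries of a group were separate cultures, and p-values then measure the spread between these samples, which may be technical. The code was tested on simulated counts.

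Alternatives were DESeq2 1.42.0 with its own test or only its size factors, no filter, limma 3.58.1 on log2(FPKM + 1) and log2(FPKM + 0.1), counts divided by 4, 1 line at a time, a replicate block, and leaving out each library. DESeq2 gave no adjusted p for CTH, which is not counted there. A model of the THP-1 libraries alone without shCYTH4 replicate 3 was added after seeing the data. Replicate numbers were not taken as pairs, because same-numbered libraries did not deviate together.

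The enzymes and the related lists were chosen with earlier results of these data known, and no p was adjusted over a list alone. The rule for named genes took all 10 enzymes and CYTH4, up to 3 called members of each list with the smallest p, and the 6 genes closest to the enzymes' profile. For the lines' controls only the enzymes are reported. Promoters are those of RefSeq on GRCh38.p14.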

Additional observations from a re-analysis of the deposited data

Results flagged for a closer look

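VLDLR, a lipoprotein receptor that ATF4 is known to induce, was the 1 gene of the related lists whose response differed between the lines by the edgeR test of that difference. Its log2 change in MV4-11 minus that in THP-1 was 1.27 (SE 0.28, adjusted p = 0.0485). For this difference 51 of the 12350 tested genes were called higher and 56 lower. The 1 call in the related lists is thus near the share of genes at large. VLDLR was at 5.89, 5.77 and 5.64 FPKM in MV4-11 shCYTH4, against 2.35, 2.73 and 3.08 FPKM in shControl. In THP-1 it was at 8.95, 7.95 and 15.5 FPKM with shCYTH4, against 14.7, 9.48 and 11.8 FPKM in shControl, again with replicate 3 the highest. Without that library the difference was 1.61 (SE 0.21, adjusted p = 0.000371). The call was lost without any 1 of the other 11 libraries (adjusted p from 0.0681 to 0.153). Counting the other processing alternatives as well, it was lost in 13 settings. None of the 10 enzymes was flagged in this way with all 12 libraries.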

How the results depend on the processing

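In MV4-11, the changes of the 10 enzymes were above 0 under every alternative that gave them a value, with medians from 1.49 to 1.95. The count called higher was 3, against 6 with DESeq2, 1 without a filter, 9 with only the MV4-11 libraries, and 0 to 9 when 1 library was left out. The count of all genes called there was 139, against 451 with DESeq2 and 74 to 398 when 1 library was left out. In THP-1 it was 204, against 612 with DESeq2, 477 with limma on log2(FPKM + 1), 70 with a replicate block, 78 with only the THP-1 libraries, 1758 with these but without shCYTH4 replicate 3, and 15 to 835 when 1 library was left out. These THP-1 calls were 75 higher and 129 lower, against 329 higher and 148 lower with limma on log2(FPKM + 1), and 163 higher and 89 lower on log2(FPKM + 0.1). Enzymes called lower in THP-1 were 0, against 5 with only the THP-1 libraries without shCYTH4 replicate 3 (a setting chosen after seeing the data) and 0 to 4 when 1 library was left out. For the difference between the lines, 107 genes were called, against 440 with DESeq2, 162 without a filter, 162 with limma on log2(FPKM + 1) and 32 to 913 when 1 library was left out. Enzymes called higher there were 0, against 3 with DESeq2, 1 with limma on log2(FPKM + 1) and 0 to 10 when 1 library was left out. In control libraries 3 or 4 of the 10 enzymes were called lower when 1 library was left out. Of all 12350 tested genes, 2881 to 3479 were called lower in those models, so the enzymes' share is near that of genes at large.

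With a replicate block, MTHFD2 was also called higher in MV4-11 (4 enzymes in all) and no other enzyme call changed. In that model 53 of the 12350 tested genes were called higher in MV4-11.

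Signs turned for these values. The THP-1 change of ALDH1L2, 0.20 in the model of all libraries, was -0.056 with limma on log2(FPKM + 1), -0.13 with limma on log2(FPKM + 0.1) and -0.12 with the block. With only the THP-1 libraries without shCYTH4 replicate 3, PSPH was -0.26, MTHFD2 -0.46, ALDH1L2 -1.11, CBS -0.31 and CTH -1.07. When 1 library was left out, the THP-1 range was -0.99 to 0.10 for PHGDH, -1.39 to 0.18 for PSAT1, -0.27 to 0.33 for PSPH, -0.46 to 0.43 for MTHFD2, -1.12 to 0.63 for ALDH1L2, -1.11 to 0.31 for ASNS, -0.32 to 0.29 for CBS and -1.08 to 0.98 for CTH. CYTH4 ranged from -0.091 to 0.16 in MV4-11. SHMT2 between the lines' controls was -0.0061 and -0.0062 with limma at the pseudocounts 1 and 0.1, and -0.12 to 0.11 when 1 library was left out. The ratio of MTHFD2 to MTHFD1 in THP-1 ranged from -0.29 to 0.57, and that of MTHFD1L to MTHFD1 in MV4-11 from -0.032 to 0.12. The cause was not tested. With 3 libraries a group, the standard error of the MV4-11 changes ran from 0.19 for SHMT2 to 0.69 for CTH, the rarest enzyme in MV4-11 shControl.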
